A study of Mus musculus with 16 samples.

Results

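Metabolic nuclear receptors and the PGC-1 coactivators set the output of the genes that burn fat and build mitochondria in heart muscle. The members here were taken by symbol: the 3 PPARs (Ppara, Ppard and Pparg), the 3 oestrogen-related receptors (Esrra, Esrrb and Esrrg), the shared partner receptor Rxra, the coactivators Ppargc1a (PGC-1α) and Ppargc1b (PGC-1β), and the corepressor Nrip1 (RIP140). All 10 were present among the 24371 genes of the deposited table, and all 10 were among the 14607 genes abundant enough to test.

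The bulk RNA libraries came from 16 samples of mouse heart in 4 groups of 4. All came from a 2-hit model of HFpEF, that is heart failure in which the ejection fraction is preserved. It combined a high-fat diet with L-NAME, which blocks nitric oxide synthases, over 12 weeks. The groups were Gpr91fl/fl hearts (floxed hearts), Gpr91fl/fl hearts with succinate, Myh6Cre Gpr91fl/fl hearts (Cre hearts) and Cre hearts with succinate. Gpr91, now named Sucnr1, encodes the receptor for succinate, and Myh6 drives Cre in cardiomyocytes, so other heart cells keep the gene. All groups shared the HFpEF model, and no healthy heart or Cre-only control was analysed here. The series is about metabolic reprogramming of cardiomyocytes by succinate, and the comparisons below ask whether succinate, the Cre genotype or their combination moved the mRNA of these regulators.

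PPARs bind DNA as pairs with a retinoid X receptor such as RXRα and are switched on by fatty acids and their derivatives. PPARα is the main PPAR of fatty acid oxidation in the heart, PPARδ shares many of its targets, and PPARγ is best known from adipocytes. Oestrogen-related receptors bind without a known natural hormone and drive the genes of the tricarboxylic acid cycle, the respiratory chain and fat oxidation. PGC-1α and PGC-1β dock on both receptor families and raise their output, whereas RIP140 docks on the same receptors and lowers it. Activity of these proteins is also set by ligands and by protein modification, which mRNA does not show.

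Total counts were 27835235 to 34700996 per library, so every member rested on at least 372 counts in each library. Sucnr1 itself, the targeted gene, had 2 to 21 counts per library in the 8 libraries labelled Cre and 0 to 7 in the 8 labelled floxed, with sums of 63 and 20 (two-sided exact permutation test over libraries, p = 0.0676). These low counts ran against the direction of a deletion and did not show it, so the genotype of each library rests on its label throughout. All 16 cardiomyocyte markers were detected in at least 1 library, and the labels give 1 batch value for all samples. Whether each sample was a different animal is not stated in the labels, and the p-values reflect only how these samples differ among themselves. In each group 1 library was picked, that with the highest sum of deposited FPKM (fragments scaled to gene length and library total). These were replicate 4 of the floxed hearts without and with succinate and replicate 2 of the Cre hearts without and with succinate. Their totals were 540503 to 560224, against 495851 to 530860 in the other 12 libraries, and their reads came from shorter genes on average (3667 to 3910 bp against 3936 to 4404 bp, weighted by counts). The pick was close in Cre hearts without succinate, at 540503 for replicate 2 and 530860 for replicate 4. The libraries picked are called the high-total libraries below. They were set apart after the data were seen, because several members were low in them, and the results are given with and without them.

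Promoter sequences are shown for Nrip1, the only member past the test, and for Ppara and Ppargc1a, which are among the members of widest range over the 16 libraries. They come from RefSeq (GRCm38.p6), run 5′ to 3′ on the gene's strand and cover 250 bases before to 50 after an annotated start. The coordinates are those of that build and are not those of the GRCm39 counts. Nrip1 has 2 annotated starts, at chr16:76373778-76374077 and chr16:76373000-76373299 (minus strand). The Ppara window is chr15:85735526-85735825 (plus strand) and the Ppargc1a window is chr5:51567676-51567975 (minus strand). Capitals mark TGACG on either strand, the half-site of the cAMP response element, and in Ppara also a match to GCGC, any base and TGCGC, the element of nuclear respiratory factor 1.
Nrip1 first start: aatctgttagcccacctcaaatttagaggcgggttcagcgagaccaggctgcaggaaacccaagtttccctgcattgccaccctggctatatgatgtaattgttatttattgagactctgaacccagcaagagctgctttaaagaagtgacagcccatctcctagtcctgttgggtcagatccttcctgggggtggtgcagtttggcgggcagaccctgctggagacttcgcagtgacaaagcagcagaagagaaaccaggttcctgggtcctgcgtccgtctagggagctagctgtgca
Nrip1 second start: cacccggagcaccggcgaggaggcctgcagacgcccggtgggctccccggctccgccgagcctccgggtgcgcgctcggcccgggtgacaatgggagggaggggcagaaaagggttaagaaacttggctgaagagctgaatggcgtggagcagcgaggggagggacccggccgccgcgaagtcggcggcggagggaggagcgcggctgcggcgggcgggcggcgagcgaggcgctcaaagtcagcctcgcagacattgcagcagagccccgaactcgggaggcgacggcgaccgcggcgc
Ppara: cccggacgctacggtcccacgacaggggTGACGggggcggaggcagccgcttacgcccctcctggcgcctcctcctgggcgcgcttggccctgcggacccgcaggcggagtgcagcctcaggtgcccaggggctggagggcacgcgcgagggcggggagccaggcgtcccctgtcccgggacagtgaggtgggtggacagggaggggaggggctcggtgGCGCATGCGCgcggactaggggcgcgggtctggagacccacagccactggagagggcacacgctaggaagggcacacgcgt
Ppargc1a: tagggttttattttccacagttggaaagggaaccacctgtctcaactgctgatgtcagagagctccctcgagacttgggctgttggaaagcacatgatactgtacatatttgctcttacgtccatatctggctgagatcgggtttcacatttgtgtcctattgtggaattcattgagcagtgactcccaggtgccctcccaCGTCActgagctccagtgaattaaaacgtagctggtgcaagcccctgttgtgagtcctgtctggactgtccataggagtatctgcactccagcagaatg

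Promoter windows of 9 of the 10 members were searched, with 17 starts between them, and no window of Ppargc1b was. Both strands were searched for 7 motifs. The oestrogen-related receptor element TNAAGGTCA was in 0 of the 17 windows and in 1.28% of all 32851 promoters of that length. Its core, the nuclear receptor half-site AGGTCA, was in 3 of 17 (2 starts of Pparg and the second start of Rxra) against 16.3% of all promoters, and its direct repeat with 1 free base between the copies, the PPAR type of element, was in 0 of 17 against 0.04%. TGACG was in 4 of 17, in Ppara, Ppard, Ppargc1a and Esrrb, against 20.8%, and the full element TGACGTCA that contains it was in 0 of 17 against 1.79%. The nuclear respiratory factor 1 element was in 1 of 17 against 4.60%, in Ppara from 31 to 22 bases before the start. The E-box CACGTG was in 0 of 17 against 7.15%. Both Nrip1 windows held none of the 7 motifs. A match is a description of the letters and not a binding site.

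Per length, Esrra was by far the most abundant of the 10. FPKM values are used for levels between genes. Esrra stood at 54.5 ± 4.93 FPKM (SD, n = 16 libraries here and for the next levels), higher than Rxra in 16 of 16 libraries. Rxra followed at 13.4 ± 1.42 FPKM and was higher than Pparg in 16 of 16. A middle set could not be ranked beyond its spread. Pparg was at 7.54 ± 1.72 FPKM and Ppard at 7.49 ± 0.893 FPKM, and Pparg was the higher in only 5 of 16 libraries. Ppargc1a at 6.06 ± 1.48 FPKM was below Ppard in 13 of 16 libraries. Ppara was at 5.18 ± 1.72 FPKM and Esrrb at 5.15 ± 0.987 FPKM, with Ppara higher in 6 of 16. The next step down was clear in all libraries, since Esrrb exceeded Ppargc1b (2.78 ± 0.763 FPKM) in 16 of 16. Ppargc1b and Esrrg (2.54 ± 0.414 FPKM) overlapped, with Ppargc1b higher in 10 of 16. Nrip1 was last at 0.888 ± 0.212 FPKM and below Esrrg in 16 of 16. This order rests on 1 gene length per gene, from 2345 bp for Esrra to 20535 bp for Nrip1. Counts, which are not scaled by length, gave another order in part. Ppara had 1019 to 2784 counts per library and Ppargc1a 1493 to 3522, both above the 445 to 910 of Pparg. Nrip1 had 372 to 866 and overlapped Pparg, while Rxra stayed above Pparg at 1970 to 3180. The FPKM order is therefore no ranking of counts.

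**Figure D1:**
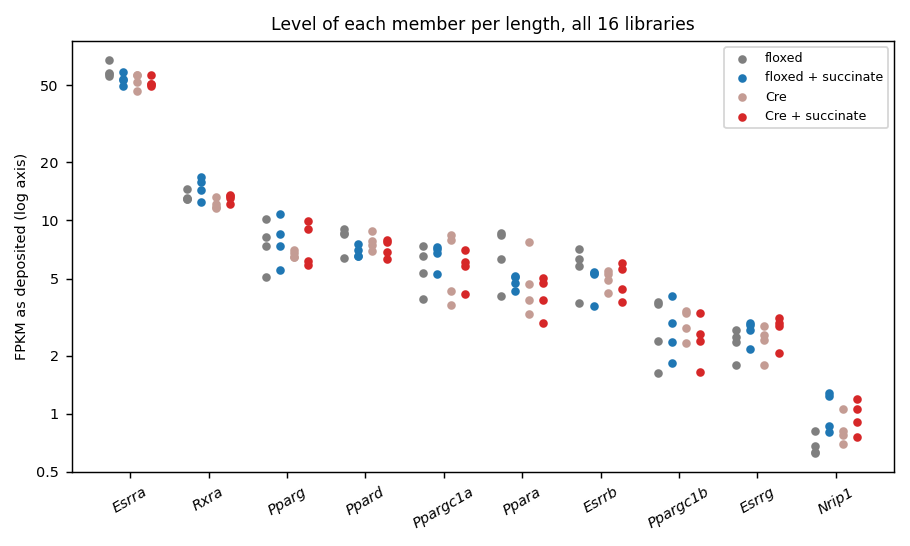
Level of each member in FPKM as deposited (log axis), 1 point per library, coloured by group and ordered by the mean over 16 libraries. Esrra lies between 46.6 and 67.2 FPKM and Nrip1 between 0.628 and 1.27 FPKM, and Pparg to Esrrb overlap.

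The spread between libraries also differed among members. From lowest to highest library, Ppara spanned a 2.91-fold range of FPKM, Ppargc1b 2.52-fold and Ppargc1a 2.30-fold. Ppard, Esrra and Rxra spanned 1.42-fold, 1.44-fold and 1.45-fold. Ppara and the coactivators had the widest ranges of the 10.

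Succinate in floxed hearts changed 1 of the 10 members, the corepressor Nrip1. In replicates 1 to 4, Nrip1 had 13.0, 16.3, 13.8 and 13.1 normalised CPM (counts scaled by TMM-adjusted library sizes) without succinate. With succinate it had 27.2, 16.6, 25.7 and 18.8. Replicates 1 and 3 of the treated hearts were well above the untreated range, replicate 2 lay just above it, and the groups did not overlap. Nrip1 was 1.57-fold higher (log2 0.65 ± 0.17 SE, adjusted p = 0.0166, edgeR quasi-likelihood test over all tested genes). In bulk hearts, more cells that express a gene and more RNA per cell cannot be told apart. Leaving out replicate 1 or 3 of either floxed group brought the adjusted p to between 0.0518 and 0.0658. Without the high-total libraries it was log2 0.685 (adjusted p = 0.0386), and over all alternatives run the adjusted p ran from 0.00418 to 0.122.

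That count is no more than the share of all genes. In the same comparison 13.1% of tested genes passed, 7.48% as higher and 5.64% as lower, and 1 of 10 members is near that. Groups that do not overlap were found in 17.8% of tested genes and in 1 of 10 members. The median log2 change of the members was 0.07, beside 0.00 over all tested genes.

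Among the PPARs, Ppara pointed down without passing. Its normalised CPM were 87.8, 64.1, 88.2 and 42.8 in floxed hearts and 55.0, 54.3, 49.9 and 47.4 with succinate. Of the untreated hearts, 3 were above all treated hearts, and replicate 4, a high-total library, was below them. The log2 difference was -0.45 ± 0.24 (95% interval -0.96 to 0.06, adjusted p = 0.232). Without the high-total libraries the difference was log2 -0.593 (edgeR adjusted p = 0.0947). That setting was chosen after the data were seen. Ppara was the lowest of its group in those libraries in 4 of 4 groups, so the larger difference is no separate support.

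Ppard, the PPAR of broad expression, had 29.6, 27.5, 27.7 and 21.3 normalised CPM in floxed hearts and 22.2, 23.1, 25.0 and 22.7 with succinate. Replicate 4 of the untreated hearts was again the lowest value. The difference was log2 -0.19 ± 0.10 (adjusted p = 0.215), and leaving out that replicate brought it to -0.28 (adjusted p = 0.0487). Pparg had 20.1, 13.6, 22.3 and 28.2 normalised CPM without succinate and 15.7, 23.3, 20.5 and 31.3 with it. In both groups the high-total library held the highest Pparg value, and the groups overlapped throughout (log2 0.11 ± 0.22, adjusted p = 0.791).

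Rxra, the partner of the PPARs, had 73.4, 80.9, 73.8 and 74.8 normalised CPM in floxed hearts and 99.9, 82.7, 90.7 and 74.8 with succinate. In 3 of the 4 treated hearts it was above all untreated hearts, and the high-total library was the exception. The difference was log2 0.20 ± 0.09 (unadjusted p = 0.0367, adjusted p = 0.145), so it did not pass.

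The oestrogen-related receptors did not pass either. Esrra had 134, 153, 134 and 133 normalised CPM without succinate and 130, 138, 128 and 122 with it (log2 -0.10 ± 0.08, adjusted p = 0.464). Esrrb had 36.6, 29.1, 31.9 and 19.6 without and 28.9, 27.4, 27.9 and 19.7 with succinate (log2 -0.18 ± 0.18, adjusted p = 0.550). Esrrg, rich in heart and a driver of the postnatal oxidative programme, had 28.02, 29.4, 26.1 and 20.3 without and 34.5, 30.6, 32.6 and 25.7 with succinate (log2 0.25 ± 0.15, adjusted p = 0.274). In Esrrb and Esrrg the lowest heart of each group was the high-total library, and Esrrg was above all untreated hearts in the other 3 treated hearts.

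The coactivators were unresolved. Ppargc1a had 84.8, 67.9, 94.2 and 51.9 normalised CPM without succinate and 98.6, 93.5, 89.8 and 72.7 with it. The groups overlapped, and the 95% interval of the log2 difference ran from -0.26 to 0.75 around 0.25 (adjusted p = 0.534). Ppargc1b had 39.9, 40.0, 25.6 and 17.9 without and 46.2, 25.8, 32.5 and 21.1 with succinate (log2 0.03 ± 0.27, 95% interval -0.54 to 0.60, adjusted p = 0.960). These intervals leave room for changes of either sign, so the values do not show that the coactivators were alike in both groups.

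**Figure D2:**
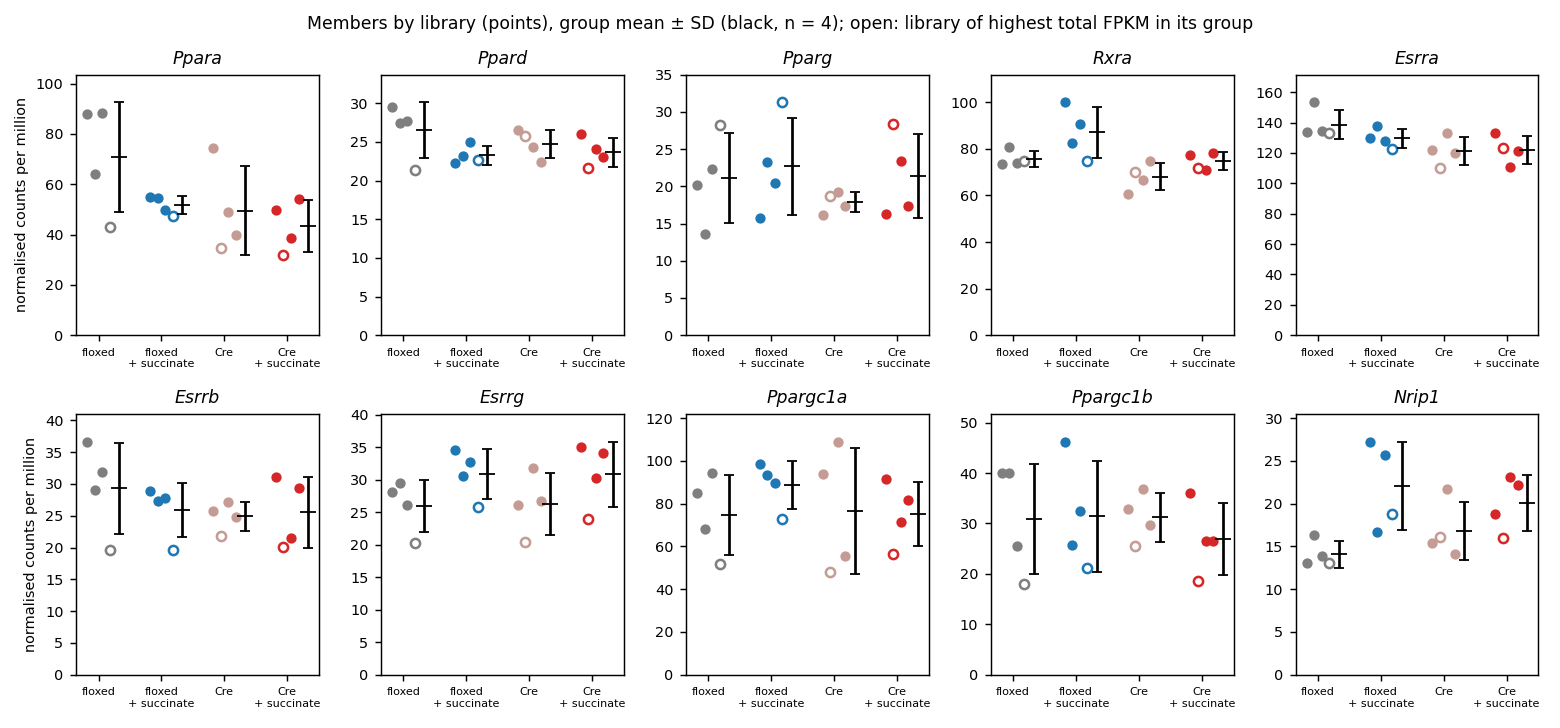
Normalised CPM of each member in every library (points), with group mean ± SD (black, n = 4); open points are the high-total libraries. Nrip1 is at 13.0 to 16.3 in floxed hearts and at 16.6 to 27.2 with succinate, while the open points are the lowest of their group for Ppara, Ppargc1a, Ppargc1b, Esrrb and Esrrg.

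In Cre hearts succinate changed 0 of the 10 members at an adjusted p under 0.05, and 0 of the 10 had an unadjusted p under 0.05 (edgeR), while DESeq2 called 0 as well. Of all tested genes 0.917% passed the adjusted threshold, 0.602% as higher and 0.315% as lower, and 14.1% had an unadjusted p under 0.05. Nrip1 had 15.4, 16.1, 21.7 and 14.1 normalised CPM without succinate and 18.7, 16.03, 23.2 and 22.2 with it. The groups overlapped and the log2 difference was 0.25 ± 0.16 (95% interval -0.09 to 0.60, adjusted p = 0.523).

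Ppara had 74.3, 34.7, 48.9 and 39.9 normalised CPM in Cre hearts and 49.6, 31.7, 38.4 and 54.2 with succinate. Replicate 1 of the untreated Cre hearts stood above all others, and the log2 difference of -0.19 ± 0.24 became 0.0627 without it. Ppargc1a had 94.04, 47.8, 109 and 55.3 without and 91.3, 56.3, 71.6 and 81.5 with succinate (log2 -0.03 ± 0.24). The untreated Cre hearts fell into a high and a low pair for Ppargc1a, and the treated hearts lay between them. The remaining members had log2 differences from -0.21 for Ppargc1b to 0.25 for Pparg, and Rxra and Esrrg were again positive (0.13 ± 0.09 and 0.23 ± 0.15).

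**Figure D3:**
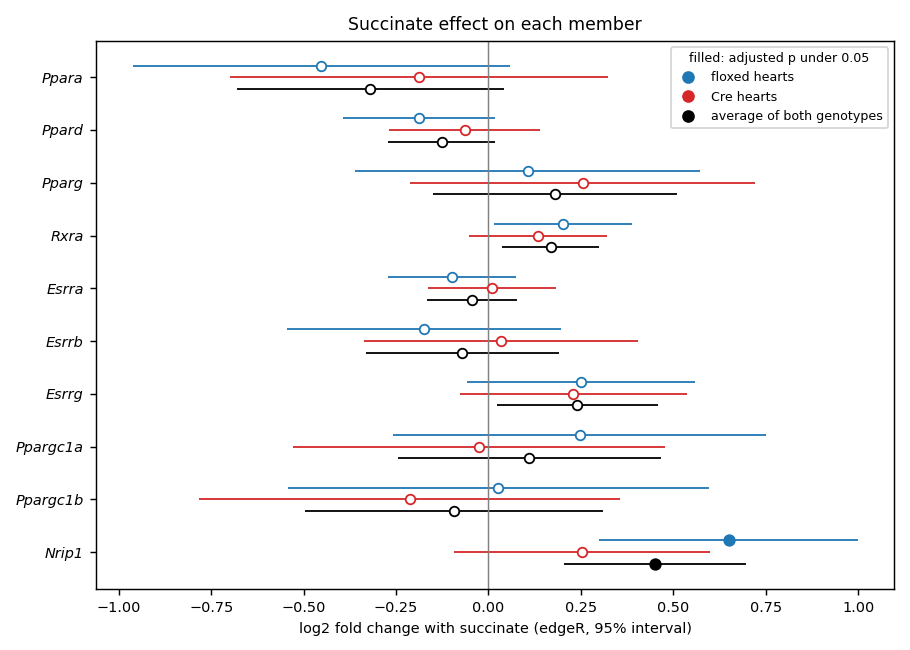
log2 fold change with succinate for each member (edgeR estimate with 95% interval) in floxed hearts, in Cre hearts and averaged over both. Filled points mark the values that passed, which were Nrip1 in floxed hearts (0.65) and averaged (0.45).

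The succinate effects of the genotypes were not shown to differ for any member. The interaction passed for 0 of 10 members and 0 of 14607 genes (edgeR, background 0%, with 709 genes or 4.85% at an unadjusted p under 0.05 and none of them a member; DESeq2 called 4 genes, none a member). Nrip1 had the smallest interaction p of the 10, with a log2 difference between the effects of -0.40 ± 0.23 (95% interval -0.89 to 0.09, adjusted p = 0.970).

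Averaged over genotypes, 8 libraries against 8, succinate changed 1 of 10 members. The average includes the floxed libraries tested above, so it is not independent of that result. In Cre hearts alone Nrip1 did not pass (edgeR adjusted p = 0.523). Nrip1 was 1.37-fold higher (log2 0.45 ± 0.12, adjusted p = 0.0124, edgeR). The background was 19% of tested genes, 10.6% as higher and 8.45% as lower, so the share of members was below it. Rxra (log2 0.17 ± 0.06, adjusted p = 0.0706) and Esrrg (0.24 ± 0.10, adjusted p = 0.114) had positive values in both genotypes. Without the high-total libraries both passed, at log2 0.207 (adjusted p = 0.0419) for Rxra and 0.221 (adjusted p = 0.0378) for Esrrg, beside Nrip1 at 0.499 (adjusted p = 0.0228). That setting was chosen after the data were seen. Esrrg was the lowest of its group in those libraries in 4 of 4 groups, so leaving them out narrows its spread. These passes are therefore no separate support. Ppara stayed negative at -0.32 ± 0.17 (adjusted p = 0.208) and at -0.402 without those libraries (adjusted p = 0.0855).

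The Cre genotype without succinate changed 0 of 10 members at the adjusted threshold (edgeR, background 0.11% of tested genes; DESeq2 also called 0 members). At an unadjusted p under 0.05 there were 2, against 8.75% of tested genes. Ppara averaged 49.4 ± 17.6 normalised CPM in Cre hearts and 70.7 ± 21.8 in floxed hearts (SD, n = 4), a log2 difference of -0.51 ± 0.24 (unadjusted p = 0.0482, adjusted p = 0.567). Esrra had 122, 110, 133 and 120 normalised CPM in Cre hearts, against the 133 to 153 of floxed hearts given above. The Esrra groups did not overlap, by a narrow gap, as they did not in 4.85% of tested genes, and the log2 difference was -0.19 ± 0.08 (adjusted p = 0.518).

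With succinate given to both, the genotype again changed 0 of 10 members (edgeR and DESeq2, background 0.691%). Rxra had 77.6, 71.8, 70.8 and 78.4 normalised CPM in Cre hearts against 99.9, 82.7, 90.7 and 74.8 in floxed hearts, and only the high-total floxed library lay within the Cre range (log2 -0.22 ± 0.09, unadjusted p = 0.0227, adjusted p = 0.341). All members but Ppard had a negative value here, from -0.25 for Ppara to -0.01 for Esrrg. Of all tested genes, 6965 of 14607 had a positive value. The floxed hearts with succinate are shared between this comparison and that of succinate in floxed hearts, so the values are not independent.

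Target genes of the PPARs moved while the receptors did not pass. Of 39 listed targets 33 were tested. Like the other gene lists below, this list was chosen with earlier results of these data known. Its counts beside those of all genes are therefore a description and no test of the list. In floxed hearts with succinate 19 of 33 (57.6%) rose and 0 fell, where 7.48% of all tested genes rose and 5.64% fell. All 33 had a positive value, and the median log2 change was 0.59, beside 0.00 over all tested genes. Ehhadh, a peroxisomal enzyme of fat oxidation, went from 8.30 ± 2.45 to 49.8 ± 11.6 normalised CPM (log2 2.58 ± 0.32, adjusted p = 0.000261). The fatty acid transporter Slc27a1 rose by log2 1.01 ± 0.15 (adjusted p = 0.000466), and Cpt1a, which admits fatty acids to mitochondria, by 0.78 ± 0.14 (adjusted p = 0.00208). The lipid droplet coat Plin5 rose by 0.88 ± 0.16 (adjusted p = 0.00259). Cpt1a is not the only gene of its kind on the list. Its relative Cpt1b, named here for its low level, was at 1.78 ± 0.311 normalised CPM without succinate. Cpt1b did not pass (log2 0.49 ± 0.27, edgeR adjusted p = 0.246), and why it was so low was not tested. The list holds close paralogs (Acot1 and Acot2, Acaa1a and Acaa1b) whose reads the counting could split.

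In Cre hearts the same list had 1 of 33 higher (3.03%, beside 0.602% of all tested genes) and all 33 positive, with a median of 0.35. The gene was Ehhadh, from 13.4 ± 6.72 to 38.7 ± 5.87 normalised CPM (log2 1.54 ± 0.31, adjusted p = 0.0295). The count was 0 without the high-total libraries, without Cre replicate 2 or 4 and without any of the 4 Cre libraries with succinate, and 8 without Cre replicate 3. Averaged over genotypes 25 of 33 (75.8%) rose and 0 fell, beside 10.6% and 8.45% of all tested genes. The 4 of smallest p were Ehhadh (2.06 ± 0.22), Slc27a1 (0.71 ± 0.10), the carnitine enzyme Cpt2 (0.51 ± 0.08) and Plin5 (0.73 ± 0.12). Others had larger log2 values with larger errors, such as the uncoupling protein Ucp3 (2.10 ± 0.36) and Pdk4, a kinase that shuts off pyruvate dehydrogenase (1.76 ± 0.43), both chosen for naming after their values were seen. Without the high-total libraries the counts were 19 in floxed hearts and 23 averaged. No target passed an interaction, in which Slc27a1 had -0.59 ± 0.21 and Ehhadh -1.05 ± 0.43 (adjusted p = 0.970 for both). Between genotypes 0 of 33 passed with or without succinate, beside 0.11% of all tested genes without it and 0.691% with it. Beside 7377 and 6965 of 14607 tested genes, 17 and 3 of the 33 were positive without and with succinate (medians 0.01 and -0.25). The smallest p belonged to Ucp2, an inner-membrane carrier (0.59 ± 0.17, adjusted p = 0.266), and Plin2, another droplet coat (0.51 ± 0.16, adjusted p = 0.366), without succinate. With succinate Ucp2 had 0.56 ± 0.17 (adjusted p = 0.158).

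Of 40 listed targets of the oestrogen-related receptors and PGC-1, 39 were in the table and tested. Acadm is also on the PPAR list, and Perm1 and Tfam are also among the further receptors and coregulators below. The counts of the lists are therefore not separate. Perm1 fell with succinate in floxed hearts (log2 -0.40 ± 0.13, edgeR adjusted p = 0.0493) and is counted in both lists. In floxed hearts 5 (12.8%) rose and 2 (5.13%) fell with succinate, beside 7.48% and 5.64% of all tested genes, with a median of 0.17. The share that fell was near that of all genes. Those of smallest p were enzymes of the tricarboxylic acid cycle, Idh3a (0.46 ± 0.09, adjusted p = 0.00339) and Cs (0.40 ± 0.10, adjusted p = 0.0135), the mitochondrial superoxide dismutase Sod2 (0.34 ± 0.09, adjusted p = 0.0155) and the complex I subunit Ndufs1 (0.41 ± 0.11, adjusted p = 0.0241). The count was fragile, at 1 without floxed replicate 3, 2 without floxed replicate 1, 3 without replicate 1 or 3 of the treated hearts, 10 with DESeq2 and 12 with total FPKM as a covariate. The count that fell dropped to 0 or 1 when any floxed library other than treated replicate 1 was left out. Averaged over genotypes 17 (43.6%) rose and 2 (5.13%) fell, beside 10.6% and 8.45% of all tested genes (11 rose without Cre replicate 1, and 1 fell without Cre replicate 3), among them Idh3a (0.43 ± 0.06) and Sod2 (0.31 ± 0.06) upward and the angiogenic factor Vegfa (-0.60 ± 0.13, adjusted p = 0.00364) downward. In Cre hearts 1 passed, Idh3a (0.39 ± 0.09, adjusted p = 0.0462), and 0 did without the high-total libraries or when any Cre library other than untreated replicate 3 was left out. Idh2, the mitochondrial NADP enzyme of the cycle, had the smallest genotype p of this list, at 1497 ± 213 normalised CPM in Cre hearts and 1979 ± 32.4 in floxed hearts (-0.40 ± 0.11, adjusted p = 0.237). Cox6a2, a muscle subunit of complex IV, followed at -0.44 ± 0.15 (adjusted p = 0.405). With succinate given to both genotypes, Idh2 was at -0.42 ± 0.11 (adjusted p = 0.0993) and the potassium channel gene Kcnj11 at -0.28 ± 0.11 (adjusted p = 0.321). The smallest interaction p belonged to Tomm40 and Fndc5, at 0.16 ± 0.11 and 0.16 ± 0.13 (adjusted p = 0.970 for both).

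**Figure D4:**
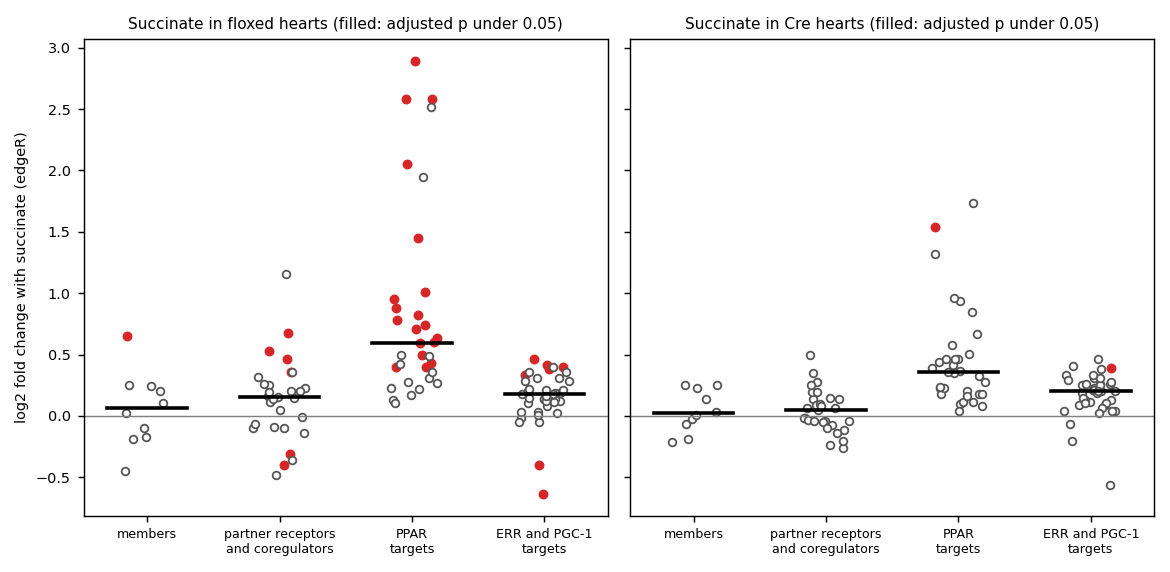
log2 fold change with succinate of the members, the partner receptors and coregulators, the PPAR targets and the targets of oestrogen-related receptors (ERR) and PGC-1, in floxed hearts (left) and Cre hearts (right). Each point is a gene, filled where its adjusted p was under 0.05, and bars are medians, which in floxed hearts are 0.07 for the members and 0.59 for the PPAR targets.

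Further receptors and coregulators that work with the members gave 4 rises (13.8%) and 2 falls (6.90%) among 29 tested of 30 listed in floxed hearts. Among all tested genes 7.48% rose and 5.64% fell, so the share of falls was near the background. The thyroid hormone receptor Thrb went from 11.8 ± 1.87 to 18.9 ± 2.67 normalised CPM (log2 0.68 ± 0.13, adjusted p = 0.00393). The heme receptor Nr1d2 rose by 0.53 ± 0.12 (adjusted p = 0.00808) and the coactivator Ncoa2 by 0.47 ± 0.13 (adjusted p = 0.0218). Its relative Ncoa3 fell, from 57.7 ± 5.11 to 46.4 ± 2.39 normalised CPM (log2 -0.31 ± 0.09, adjusted p = 0.0229). Without floxed replicate 4, or without replicate 1 or 3 of the treated hearts, 2 rose, and 0 or 1 fell when any floxed library other than untreated replicate 4 was left out. In Cre hearts 0 of 29 passed with edgeR, where Thrb was at 0.49 ± 0.13 (adjusted p = 0.0900) and Ncoa3 at -0.24 ± 0.09 (adjusted p = 0.202), and DESeq2 called 1. Averaged over genotypes 6 (20.7%) rose and 3 (10.3%) fell, beside 10.6% and 8.45% of all tested genes (3 rose without replicate 4 of the treated Cre hearts, and 1 fell without Cre replicate 3), among them Thrb (0.58 ± 0.10), the metabolic transcription factor Klf15 (0.31 ± 0.08), Thra (0.30 ± 0.08) and, downward, Ncoa3 (-0.27 ± 0.06). Thra overlaps Nr1d1 on the opposite strand, and no source used here gives the strandedness of the libraries, so their reads cannot be told apart.

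Between genotypes 0 of 29 partners passed, beside 0.11% of all tested genes without succinate and 0.691% with it. Without succinate the smallest p belonged to Perm1, a muscle regulator downstream of PGC-1 (-0.35 ± 0.13, adjusted p = 0.438), and Nrf1, a nuclear respiratory factor (-0.21 ± 0.09, adjusted p = 0.516). With succinate Nr1d2 was at -0.38 ± 0.12 (adjusted p = 0.175) and Klf15 at -0.34 ± 0.11 (adjusted p = 0.193). The smallest interaction p belonged to Nr1d2 (-0.57 ± 0.17, adjusted p = 0.930) and Ncoa2 (-0.33 ± 0.18, adjusted p = 0.970).

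Some cell-type markers moved with succinate as well. In floxed hearts summed cardiomyocyte markers were 68198 to 76401 normalised CPM without and 80332 to 89877 with succinate, with 4 of 16 higher and 1 lower. In Cre hearts they were 60536 to 73440 and 73076 to 89371, with 1 of 16 higher. The median log2 change of these 16 markers was 0.07 in floxed hearts (11 of 16 positive). It was 0.17 in Cre hearts (14 of 16 positive), so the higher sums do not stand for every marker. Summed macrophage markers were 492 to 694 and 291 to 540 in floxed hearts, with 6 of 12 lower, and 545 to 779 and 360 to 611 in Cre hearts, with 0 of 12 called. Of all tested genes 7.48% were higher and 5.64% lower with succinate in floxed hearts. In Cre hearts these shares were 0.602% and 0.315%. Beside the mostly negative genotype values of the members, all 12 fibroblast markers had a positive value in Cre against floxed hearts. Their median log2 was 0.31 without and 0.53 with succinate. Where 0.11% and 0.691% of all tested genes passed, 0 of these 12 markers did in either. Their sums were 3592 to 4426 against 3081 to 3883 without succinate and 3590 to 5144 against 2761 to 3689 with it. The white adipocyte list, which matters because Pparg and several PPAR targets are adipocyte genes, summed to 271 to 293 without and 367 to 386 with succinate in floxed hearts. Its defining genes were nearly absent, with Adipoq at 0 to 21 counts per library, Plin1 at 0 to 10 and Cidec at 0 to 6, and the brown fat marker Ucp1 was at 0 to 1. Most of the sum came from Tmem182 (164 to 201 without and 199 to 231 with succinate in floxed hearts) and Lipe, the hormone-sensitive lipase (49.04 to 86.9 and 108 to 131), so it is no measure of adipocytes here. The part of the cardiomyocyte, macrophage and fibroblast markers in these results was not tested.

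Within groups, several members were low in the same libraries. Ppara, Ppargc1a, Ppargc1b, Esrrb and Esrrg were each the lowest of their group in the high-total library in 4 of 4 groups. Esrra was lowest there in 3 groups, Ppard in 2, and Rxra and Nrip1 in 1 each. Pparg went the other way and was highest there in 3 of 4 groups. Of the 5 members lowest in all 4, 4 have long gene models (10433 to 13011 bp) and Esrrb has 5135 bp, while Pparg has 2742 bp and Nrip1, the longest at 20535 bp, did not follow the pattern. The part of gene length and of these libraries in the spread was not tested.

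**Figure D5:**
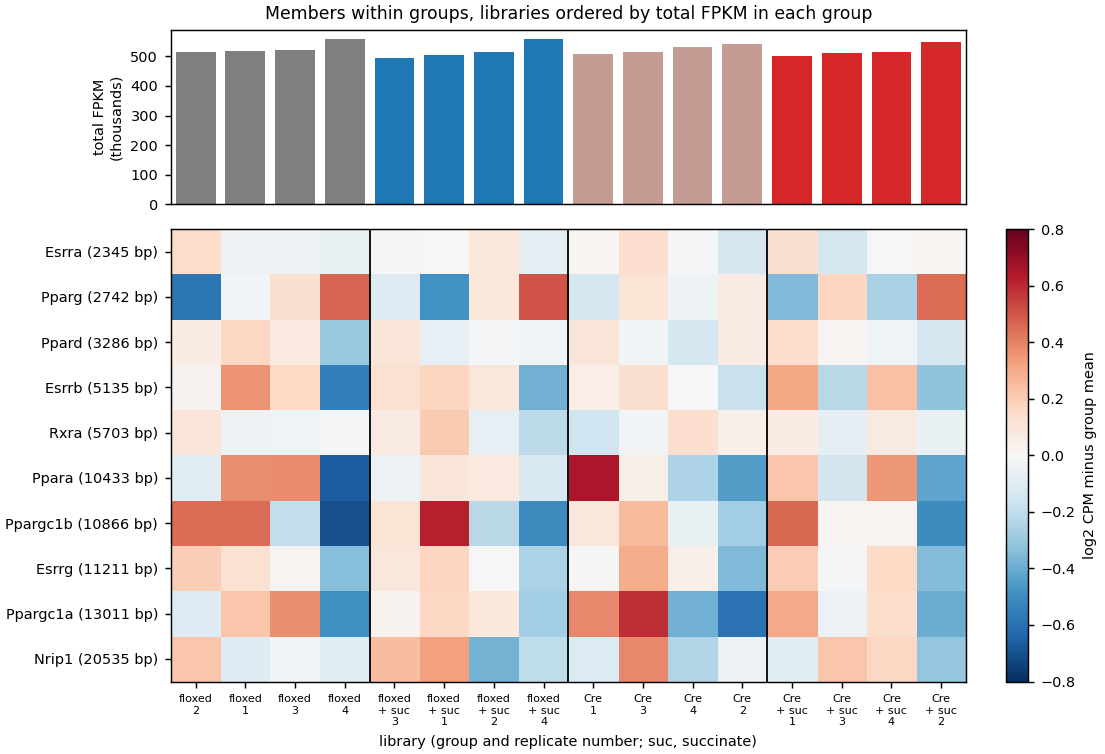
Deviation of each member's log2 CPM from its group mean (colour) in each library, with libraries ordered by total FPKM within each group (bars above) and members by gene length. The last library of each group, with totals of 540503 to 560224, is blue for Ppara, Ppargc1a, Ppargc1b, Esrrb and Esrrg, and Pparg is red in floxed replicate 4 of both treatments and in Cre replicate 2 with succinate.

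The genes whose profile was most like each member's were found among 11148 genes of sufficient level, as Pearson's r of log2 CPM over 16 libraries after removal of group means. These are descriptions, since all points share libraries and the high-total libraries weigh in each. Ppara was most like Trim72, a muscle membrane repair gene (r = 0.963, Spearman's rho 0.968), Vcl (r = 0.947) and Hspa4l (r = 0.935). Among the genes most like Ppargc1a were Rint1 (r = 0.922) and Mbnl2 (r = 0.915). Ppargc1b was most like Arhgef6 (r = 0.957), the cardiac transcription factor Gata4 (r = 0.953) and Camk2a (r = 0.952).

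Nrip1 was most like Ptpn4 (r = 0.916, rho 0.903), Mtus1 (r = 0.884) and Mob1b (r = 0.879). Among the oestrogen-related receptors, Esrra was most like Mapk14 (r = 0.919), Mgme1 (r = 0.871) and Dhrsx (r = 0.830). Esrrb was most like Eif4g1 (r = 0.951), Atp6v0a2 (r = 0.942) and Fblim1 (r = 0.937), and Esrrg like Ttc3 (r = 0.966), Abca12 (r = 0.957) and Clasp2 (r = 0.950). Ppard was most like Kank1 (r = 0.893), Xrcc2 (r = 0.891) and Slc25a51 (r = 0.890), and Rxra like Tnk2 (r = 0.890), Gramd1b (r = 0.887) and Pik3c2b (r = 0.878). Pparg was most like the collectin gene Colec11 (r = 0.929), Gadd45gip1 (r = 0.906) and Cfdp1 (r = 0.901). No gene was nearest to more than 1 member.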

How the data were processed

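Total RNA of mouse hearts was sequenced with the VAHTS Universal V6 kit, per the labels' protocols. The authors deposited whole-number counts per gene and FPKM values. The submitters' processing notes list GRCm39 and the tools DESeq2, HTSeq, HISAT2, fastp and R 3.2.0, without roles or settings. FPKM equalled the deposited count scaled by library total and 1 gene length per gene, so it is no independent measurement.

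Counts were analysed with edgeR 4.0.16 in R 4.3.3 (TMM, filterByExpr with a minimum count of 10, robust quasi-likelihood F-test, 1 mean per group over all 16 libraries, 12 residual degrees of freedom). P-values were adjusted over all 14607 tested genes by Benjamini-Hochberg to 0.05, and SE is the log2 fold change over the root of F. The script was tested on simulated data. Replicate libraries were no repeats of each other (chi-square at least 10.9 times its degrees of freedom), and 3 counts equalled 0.0865 to 0.108 CPM, covering counting error only. Alternatives were DESeq2 1.42.0, limma 3.58.1 on log2 FPKM with a pseudocount of 1 or 0.1, other filters and scalings, a replicate block, marker and total-FPKM covariates, and left-out libraries.

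Members and lists were chosen with earlier results of these data known. Named genes were the 10 members, up to 4 list genes of smallest p past the threshold in each succinate comparison or the 2 of smallest p where none passed, up to 2 in each other comparison, and the 3 genes most like each member. Some genes that this rule names are not reported here. Listed symbols were matched to the table through RefSeq synonyms, and Phb1, Lep and Zic1 were not matched.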

Additional observations from a re-analysis of the deposited data

Results flagged for a closer look

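Of the 40 sets of 4 libraries (10 members in 4 groups), 2 held a library far from the other 3 by Dixon's ratio, above the critical value of 0.829. Chance gives this in about 1 of 20 sets, and 2 of 40 is that rate. Esrra in floxed replicate 2 was at 153 normalised CPM, with the next library at 134 (ratio 0.930). Esrrb in replicate 4 of the floxed hearts with succinate, a high-total library, was at 19.7 normalised CPM, with the next at 27.4 (ratio 0.835).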

How the results depend on the processing

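The members called with succinate in floxed hearts fell from 1 to 0 in limma on log2(FPKM + 1), on log2(FPKM + 0.1), with a mean of at least 1 FPKM (which left out Nrip1, so 9 members were tested) and with no filter. The same 4 settings gave 0 averaged over genotypes, where leaving out the high-total libraries, an alternative chosen after seeing the data, gave 3 (Esrrg, Nrip1 and Rxra). These 3 of 10 members stood beside 2765 of 14657 tested genes called in that setting. Leaving out each library in turn gave 0 to 2 members in floxed hearts and 1 to 2 averaged. Nrip1 was called in 14 of 21 alternative settings in floxed hearts (log2 0.268 to 0.745) and in 25 of 28 averaged (0.186 to 0.524). A pseudocount of 1 pulls the log2 value of Nrip1 toward 0 at its low FPKM, but Nrip1 was not called with a pseudocount of 0.1 either. The FPKM values also lack TMM scaling. The part of each in the lost calls was not tested. Members called stayed at 0 in every setting for succinate in Cre hearts, both genotype comparisons and the interaction. Ppara with succinate in Cre hearts turned to 0.0627 without Cre replicate 1 (left-out range -0.324 to 0.0627). Values near 0 that crossed it by less than their own SE, 87 of 1454 recomputed and at most 0.222 in size, were not counted as reversals. Over all genes, calls ranged from 1018 to 2550 (1917 in the edgeR test) for succinate in floxed hearts, 22 to 488 (134) in Cre hearts, 2000 to 3506 (2781) averaged, 3 to 90 (16) and 38 to 327 (101) for genotype without and with succinate, and 0 to 4 (0) for the interaction. Without replicate 1 or 3 of either floxed group the floxed count was 1018 to 1150. The higher ends in Cre hearts, in both genotype comparisons and in the interaction were those of DESeq2.

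Same-numbered libraries varied together little, with 3 of 24 pairs above r = 0.1 (range -0.121 to 0.320). Of the 16 libraries, 5 were most like one of their own number. The main test did not pair libraries by number. With 4 libraries per group these values cannot exclude a pairing. With a replicate block 1 member was called in floxed hearts (Nrip1, log2 0.627, adjusted p = 0.017), 1 averaged and 0 elsewhere. At this depth the members' counts were not the limit; the spread between libraries was, with SE of 0.24 to 0.27 for Ppara and the coactivators. The causes of the changes listed here were not tested.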
